A study of Mus musculus with 14 samples.

Results

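The last part of the mouse Stag1 gene, together with the interval up to and including the 3′ part of its neighbour Pccb, was described as a contact partner of 3 UMI-4C baits at the same locus. UMI-4C is a chromosome conformation assay that lists the restriction fragment ends ligated to a chosen bait and counts each captured molecule once, as a unique molecular identifier (UMI). The region runs from 100.86 Mb to 101 Mb on chromosome 9 (GRCm38) and was selected on an earlier reading of these data, in which its windows differed between cell types from the CTCF bait. All listed partner ends inside it were taken, which gave 602 fragment ends, of 8286 seen between 10 kb and 1 Mb from a bait and 116782 in all libraries together. They carried 12249 UMIs. The region holds 337 GATC sites, the sequence at which listed fragments end, and each site has 2 ends, so 89.3% of the 674 possible ends were seen.

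The libraries came from untreated embryonic stem cells (ESC) kept in 2i-LIF, and from neural stem cells (NSC) that were derived from ES cells and grown with EGF and FGF. Neither the ESC line nor the number of separate cultures is given in the labels, so p-values measure the spread between libraries, which may be technical. Nanog bait 1 (4 ESC and 3 NSC libraries) and Nanog bait 2 (3 ESC and 1 NSC) lie inside Stag1, and the CTCF bait (2 ESC and 1 NSC) lies upstream of the gene. What Nanog and CTCF stand for in these names is not given in the labels. Libraries held 7172 to 51412 UMIs, of which 3221 to 24766 lay 10 kb to 1 Mb from the bait and 334 to 3875 in the region. Libraries were not all independent. Of all pairs, 3 shared 82.6% to 85.7% of the fragment ends that the smaller library had on other chromosomes. These pairs (bait 1 ESC replicates 1 and 4, ESC replicates 2 and 3, NSC replicates 1 and 3) were averaged and each counted as 1 sample, which left 2 ESC and 2 NSC samples for bait 1. A further 9 pairs, called linked here, shared 1.92% to 12.9%, mostly across the cell types of a bait. In the remaining 79 pairs no more than 0.641% was common.

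Stag1 encodes a subunit of cohesin, the ring complex that holds sister chromatids together and extrudes chromatin loops. Loops extruded by cohesin are commonly stopped at sites bound by the zinc finger protein CTCF, and contacts of a site therefore depend on distance as well as on such borders. Pccb encodes the beta subunit of propionyl-CoA carboxylase, a mitochondrial enzyme that breaks down propionyl-CoA. The study set contacts of the Stag1 locus in ESC beside those in NSC, and it described Stag1 transcripts that end early, in introns 22 and 25, and an isoform without exon 31, all of which fall in the region.

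Stag1 (ENSMUSG00000037286.15) spans 100597798 to 100959375 on the plus strand, and its last 99375 bp lie in the region. Its longest annotated transcript has 34 exons, of which 21 (exon 14 to exon 34) are in the region. Exon 31 (100953486 to 100953596) is absent from the other full-length transcript, which has 33 exons. Gm3081 (ENSMUSG00000103624.1, 100877091 to 100880115), an unclassified model that awaits experimental testing, lies inside Stag1. A gap of 22.656 kb follows Stag1. Pccb (ENSMUSG00000032527.13, 100982032 to 101034898, minus strand) ends its transcription next to the gap, and 9 of its 15 exons lie in the region. Stag1 introns held 393 of the 602 ends and 66.7% of the UMIs, Stag1 exons 21 ends and 4.03%, the gap 124 ends and 16.9%, Pccb introns 58 ends and 11.2%, and Pccb exons 6 ends and 1.18%.

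The sequences around the 3 bait ends, and around the only partner end that ranked among the 3 strongest in the region for more than 1 bait when each library has equal weight, are shown because they fix which ligation junctions were counted. Each is 60 bases of the plus strand of GRCm38, with the GATC site of the counted end in capitals (the bait 1 stretch holds another GATC, in lower case). They lie at chr9:100619959-100620018, chr9:100641669-100641728, chr9:100455348-100455407 and, for the partner end in Stag1 intron 22, chr9:100924273-100924332.
bait 1: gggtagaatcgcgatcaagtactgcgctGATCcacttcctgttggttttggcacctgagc
bait 2: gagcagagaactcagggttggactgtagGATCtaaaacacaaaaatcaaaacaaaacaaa
CTCF bait: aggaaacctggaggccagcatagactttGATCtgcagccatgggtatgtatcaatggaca
partner end 100924303: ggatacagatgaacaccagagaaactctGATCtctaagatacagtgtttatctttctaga

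Bait 1 (position 100619989) lies 240.012 kb from the near edge of the region and 380.011 kb from its far edge. Bait 2 (100641698) lies 218.303 kb and 358.302 kb away, and the CTCF bait (100455377) 404.624 kb and 544.623 kb away. The baits thus look at the region over different distances, so shares are set side by side across baits and compared only within a bait. The CTCF core consensus, taken as 12 letters, had 0 matches on either strand of the region and 671 on chromosome 9. Of the 856 intervals of 140 kb on this chromosome, 47.1% hold at least 1 match. CTCF binding was not measured, so the lack of a match does not show that CTCF is absent.

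The region took 9.68% to 18.0% of the UMIs of the CTCF bait, 8.48% to 10.7% of those of bait 1 and 9.81% to 11.4% of those of bait 2, counted between 10 kb and 1 Mb from the bait. From the CTCF bait the share was 15.6% (95% Wilson interval 15.2% to 16.1%) in ESC replicate 1 and 18.0% (16.8% to 19.1%) in ESC replicate 2. It was 9.68% (9.08% to 10.3%) in the NSC library. Both ESC libraries lay above the NSC library, with a mean of 16.8% ± 1.64 (SD, n = 2) and a log2 ratio of 0.80. All libraries of this bait are linked to each other: 2.44% of ends were shared by the ESC libraries, and 8.37% and 1.92% by each with NSC. Against ESC replicate 1, the closest linked library, the log2 ratio was 0.69. The contrast of ESC with NSC from this bait chose the region, so it is a description and was not tested. The size of the gap moved with how ends were counted. With each fragment end counted once, whatever its UMIs, the log2 ratio was 0.27 and the NSC library (10.1%) lay between the ESC libraries (8.95% and 15.3%). The lower of these was ESC replicate 1, the deepest library, in which 594 of the 674 possible ends were already seen, with 6.52 UMIs per listed end against 1.77 in the NSC library. What part depth has in the gap was not tested.

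**Figure D1:**
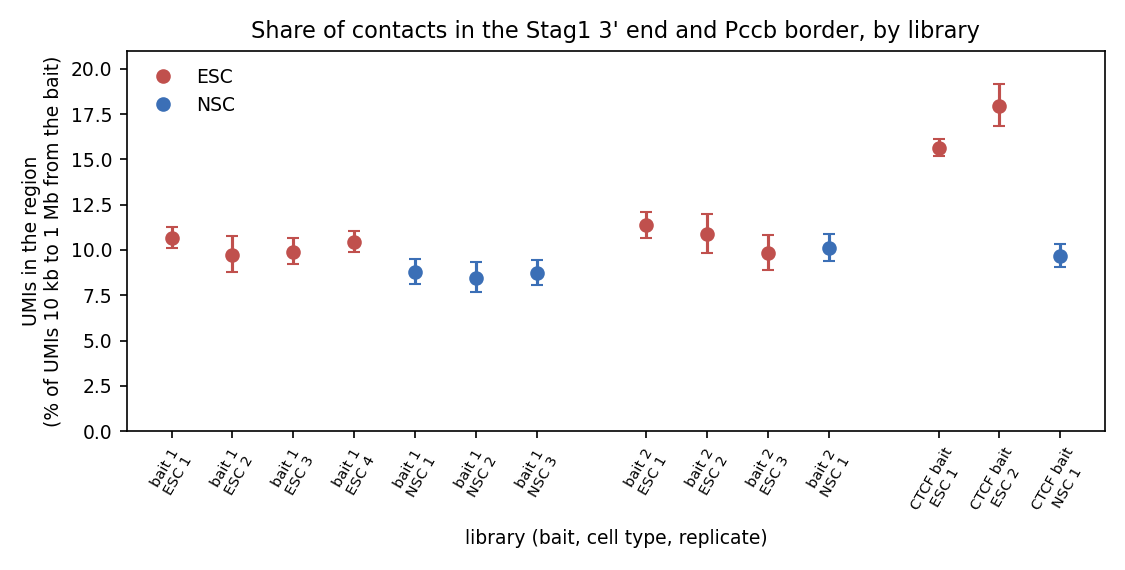
Percentage of the UMIs 10 kb to 1 Mb from the bait that fell in the region, for each of the 14 libraries, with 95% Wilson intervals as bars (counting error only). The CTCF bait ESC libraries sit at 15.6% and 18.0%, above its NSC library at 9.68%, whereas the bait 1 libraries range from 8.48% to 10.7% and those of bait 2 from 9.81% to 11.4%.

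Seen from bait 1, the share was 10.7%, 9.71%, 9.89% and 10.4% in ESC replicates 1 to 4. It was 8.78%, 8.48% and 8.74% in NSC replicates 1 to 3. All ESC libraries lay above all NSC libraries. After averaging repeat libraries the share was 10.2% ± 0.534 in ESC and 8.62% ± 0.199 in NSC (SD, n = 2 each), a log2 ratio of 0.24. A two-sided exact permutation test gave p = 0.333, which 2 samples against 2 cannot go below. ESC exceeded NSC by 1.80 percentage points within the first set of linked libraries (ESC 1 and 4, NSC 1 and 3) and by 1.32 within the second (ESC 2 and 3, NSC 2). When only UMIs 10 kb to 500 kb from the bait were the denominator, the groups overlapped (11.6% in ESC, 11.1% in NSC, log2 ratio 0.06).

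From bait 2 the share was 11.4%, 10.9% and 9.81% among ESC libraries. The single NSC library had 10.1% (9.36% to 10.9%), which lay inside the ESC range, and the ESC mean was 10.7% ± 0.798 (SD, n = 3), a log2 ratio of 0.08. No test was run with 1 NSC library. Against ESC replicate 1, the library to which this NSC library is linked, the log2 ratio was 0.17. Over UMIs 10 kb to 500 kb from the bait the direction turned, with 11.7% in ESC and 12.5% in NSC (log2 ratio −0.094), and the NSC library again lay inside the ESC range (10.6% to 12.8%).

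The choice of denominator moved these ratios. Among UMIs 200 kb to 600 kb from the bait on the same side as the region, the share in the region was 49.1% in ESC and 40.2% in NSC from bait 1 (exact permutation p = 0.333, the smallest possible). It was 51.6% and 43.7% from bait 2, and 48.6% and 39.9% from the CTCF bait. On this scale all ESC samples lay above all NSC samples of the same bait. The log2 ratios were 0.29, 0.24 and 0.28, where those over 10 kb to 1 Mb had been 0.24, 0.08 and 0.80. The band covers a different stretch of the chromosome from each bait. The region also makes up a large part of it, which limits how far these ratios can spread. Whether they differ between baits was not tested.

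The region was also set against the interval of the same length at the same distance on the other side of each bait. These mirror intervals run from 100239978 to 100379977 for bait 1, 100283396 to 100423395 for bait 2 and 99910754 to 100050753 for the CTCF bait. They hold 329, 333 and 353 GATC sites against 337 in the region, so the number of sites was similar. In all 14 libraries the region had more UMIs than its mirror interval, by 2.30 to 7.06 times. From bait 1 the ratio was 3.77 ± 0.271 for ESC against 2.51 ± 0.296 for NSC (SD, n = 2 each), without overlap of the samples (exact permutation p = 0.333, the smallest possible). ESC exceeded NSC in both linked sets (3.58 against 2.72, and 3.96 against 2.30).

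From bait 2 the ratio was 4.68 ± 1.02 (SD, n = 3) in ESC and 2.81 in the NSC library, below all 3 ESC libraries. Against its linked ESC library the ratios were 3.55 and 2.81 (log2 0.34, against 0.73 for the mean). The CTCF bait gave 6.14 ± 1.30 in ESC (SD, n = 2) and 2.96 in NSC. With each fragment end counted once these became 2.78 and 2.04 (log2 0.45, against 1.05). With all UMIs counted, the ratios for ESC replicate 1, the closest linked library, and NSC were 5.22 and 2.96 (log2 0.82). The mirror interval itself moved the other way. Its share was 2.72% ± 0.330 in ESC and 3.45% ± 0.327 in NSC from bait 1 (n = 2 each), 2.38% ± 0.708 (n = 3) and 3.59% from bait 2, and 2.77% ± 0.321 (n = 2) and 3.27% from the CTCF bait. Part of each ratio therefore came from its denominator.

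**Figure D2:**
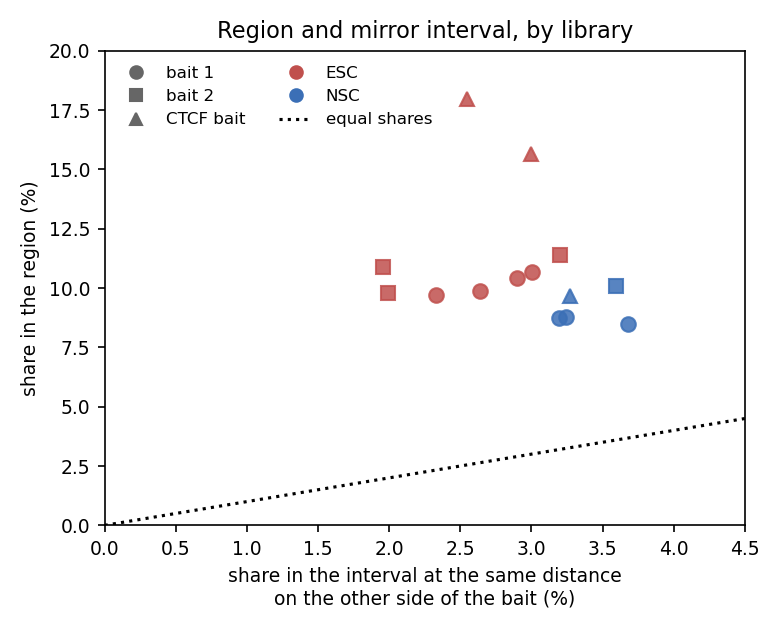
Share of UMIs in the region (vertical axis, %) against the share in the interval at the same distance on the other side of the bait (horizontal axis, %), 1 point per library, with the dotted line at equal shares. All 14 libraries lie above the line, with ratios of 2.30 to 7.06, and the NSC libraries lie towards higher mirror shares.

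Within the region, contacts were not spread evenly. It was divided into 7 windows of 20 kb. The window from 100900001 to 100920000, which holds exon 22 and the start of intron 22, had the highest share in 11 of the 14 libraries, in 1 of them (bait 1 NSC replicate 2) tied with the window at 100940001 at 1.33%. The window from 100960001, just past the Stag1 end, was highest in 2 libraries and the first window of the region in 1. In the libraries of the CTCF bait, the 100900001 window had 3.03% and 3.60% of the UMIs in the ESC libraries and 1.84% (1.58% to 2.14%) in NSC. From bait 2 it had 2.11%, 1.83% and 1.83% in ESC and 1.87% in NSC. Libraries of both cell types were among the 11.

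The lowest share among the windows in the CTCF bait NSC library was at 100940001 to 100960000, which holds exons 26 to 34 and the annotated end of Stag1. It had 0.965% (0.780% to 1.19%) there, and 1.91% and 2.24% in the ESC libraries. This window has 31 GATC sites, the fewest of the 7, against 61 in the window before it. Its ESC to NSC ratio from the CTCF bait, 2.15, was the highest in the region. The other 6 windows had ratios of 1.46 to 1.82.

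**Figure D3:**
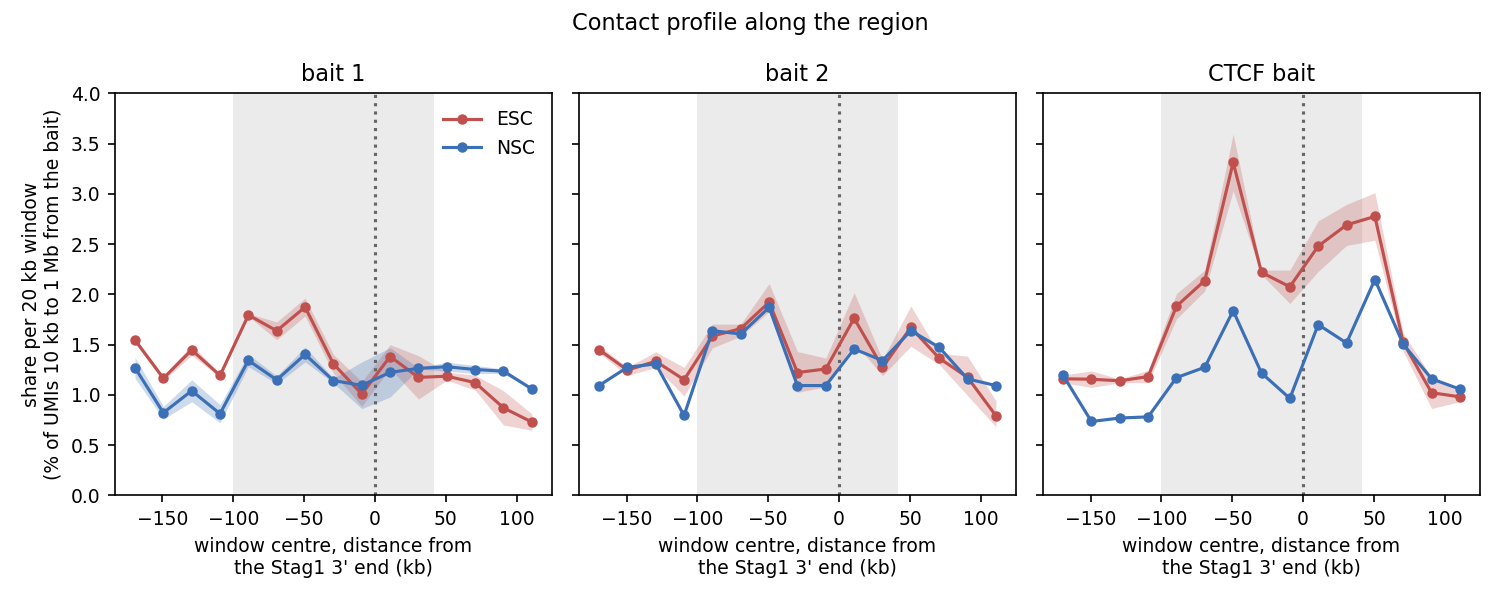
Share of UMIs per 20 kb window (vertical axis, % of UMIs 10 kb to 1 Mb from the bait) against the distance of the window centre from the Stag1 3′ end (horizontal axis, kb), for each bait. Points are means and shading is the range over samples, with repeat libraries averaged and linked ones kept apart. The grey band is the region and the dotted line the Stag1 end; from the CTCF bait the ESC line peaks at 3.31% and the NSC line at 1.84% in the same window of the region.

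The samples were then compared window by window. From the CTCF bait all 7 windows had both ESC libraries above the NSC library, as had 25.7% of the 101 windows tested within 1 Mb, and 6 of the 7 were at least 1.5 times higher in ESC, as were 7.92% of all. These counts come from the contrast that chose the region and nothing is read from them. From bait 1, 4 of the 7 windows had all ESC samples above all NSC samples, against 23% of the 100 windows, and 0 of 7 had the reverse, against 59%. The 10 windows that adjoin the region inside Stag1, from 100660001 to 100860000, all had ESC above NSC too, with ratios of 1.21 to 1.57, so this order was shared with the neighbouring gene body. From bait 2 it was 1 of 7 against 15%, with 0 of 7 in reverse against 63%, and 0 of 7 were at least 1.5 times higher in ESC, against 2%. The median log2 ratio over the 7 windows was 0.83 from the CTCF bait, 0.20 from bait 1 and 0.05 from bait 2, beside −0.15, −0.52 and −0.81 over all windows of the same bait.

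The contrast from bait 1 was tested per window with the quasi-likelihood test of edgeR on 2 ESC and 2 NSC samples, with adjustment over all 100 windows. Of the 7 windows, 3 passed an adjusted p of 0.05, all higher in ESC, where 12% of all windows passed in that direction. None of the 7 passed as higher in NSC, where 19% of all windows did. That split depends on the scaling: of the 100 windows, 22 passed towards ESC and 10 towards NSC with TMM factors, 19 and 0 with DESeq2, and 20 and 3 with all UMIs outside 10 kb as library size. The 3 are adjacent and form the part of the region nearest to the bait, from the end of intron 13 to the start of intron 22.

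The first window, which ends at 100880000 and holds exon 14, had 1.79% ± 0.0194 (SD, n = 2) in ESC and 1.34% ± 0.0880 in NSC, with a log2 fold change of 0.42 ± 0.11 (SE) and an adjusted p of 0.0401 (edgeR). The window at 100880001 to 100900000, which holds exons 15 to 21, had 1.64% ± 0.125 and 1.15% ± 0.0551, with a log2 fold change of 0.49 ± 0.12 and an adjusted p of 0.0401. The window at 100900001 to 100920000 had 1.87% ± 0.126 and 1.40% ± 0.106, with a log2 fold change of 0.43 ± 0.12 and an adjusted p of 0.0449. In each of the 3, both ESC samples lay above both NSC samples.

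The other 4 windows, from intron 22 to Pccb, did not pass. Their log2 fold changes were 0.15 ± 0.12 (SE) at 100920001, 0.01 ± 0.23 at 100940001 (where the mean shares had the other order, 1.01% in ESC and 1.10% in NSC, with overlap, and the fit without NSC replicate 2 gave 0.29), 0.17 ± 0.20 at 100960001 and −0.04 ± 0.20 at 100980001, with adjusted p (edgeR) from 0.437 to 0.978. As 1 window of 140 kb, the region had a log2 fold change of 0.25 and an adjusted p of 0.0470 (edgeR, 15 windows). Of those 15 windows, 11 passed, 3 towards ESC and 8 towards NSC, so a call was common at this width.

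These calls were close to the threshold and depended on the processing. Averaging repeat libraries leaves counts that end midway between whole numbers, and the call at 100900001 rested on how they were rounded: to the nearest even number it passed, and upwards it did not (adjusted p = 0.0502, edgeR), which left 2 of 7. No window of the region passed when each fragment end was counted once, with the linked libraries as a block, with windows scaled to their distance band, without ESC replicate 3 or without NSC replicate 2. Over all 100 windows, 0 passed with ends counted once, 0 with the linked block, 3 with distance bands and 0 without ESC replicate 3. With distance bands the log2 fold changes of the 3 windows also fell, to between 0.16 and 0.22, whereas with the linked block they were 0.42, 0.49 and 0.42. They were 0.50, 0.50 and 0.40 with ends counted once. Without ESC replicate 3 they were 0.38, 0.50 and 0.45, and without NSC replicate 2 0.37, 0.53 and 0.36. With TMM factors, or with all UMIs outside 10 kb as library size, 5 passed, and the latter raised the 3 log2 fold changes to between 1.25 and 1.35.

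**Figure D4:**
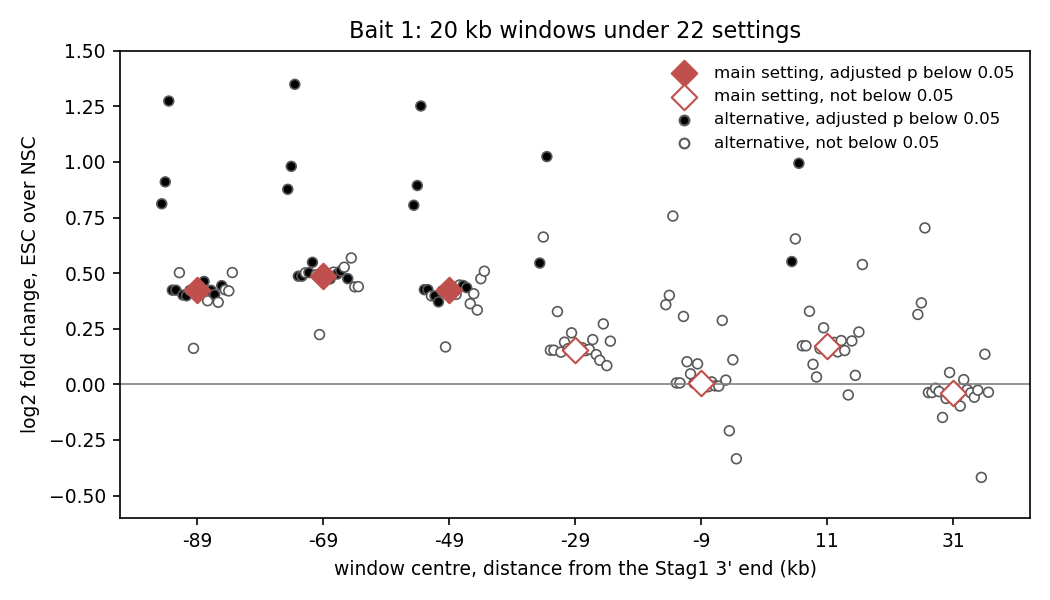
Log2 fold change (ESC over NSC) from bait 1 of the 7 windows of 20 kb in the region, against the distance of the window centre from the Stag1 3′ end (kb), under the setting reported (diamonds) and 21 alternatives (circles), filled where the adjusted p was below 0.05. The 4 windows farthest upstream of the Stag1 end stay above 0 under all 22 settings, although the 3 called ones lose the call in some, and the other 3 windows lie on both sides of 0.

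By annotated part of the region, the bait 1 samples differed most in the stretch named exon 14 to exon 22, which also holds the end of intron 13. There the share was 4.26% ± 0.119 in ESC and 2.96% ± 0.103 in NSC (SD, n = 2 each), a ratio of 1.44 with no overlap. Intron 22, in which the study placed an early transcript end, had 1.54% ± 0.0165 and 1.41% ± 0.0446, a ratio of 1.09, also without overlap. The short stretch from exon 23 to exon 25 had 0.236% ± 0.0103 and 0.170% ± 0.0423, a ratio of 1.39 without overlap, on 102 UMIs in all. Intron 25, with the other early end, had 0.706% ± 0.0373 and 0.704% ± 0.0584, and the samples overlapped. The stretch from exon 26 to the gene end, which includes exon 31, had 0.861% ± 0.121 and 0.891% ± 0.289, again with overlap.

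Beyond the gene, bait 1 gave 1.57% ± 0.186 (SD, n = 2) in ESC and 1.37% ± 0.423 in NSC between Stag1 and Pccb, and 1.00% ± 0.302 and 1.12% ± 0.0669 in the 3′ part of Pccb. Both overlapped. From bait 2 the gap had 2.02% ± 0.224 (SD, n = 3) in ESC and 1.64% in NSC, and the NSC library lay below all ESC libraries. It also did in intron 22 (1.55% ± 0.154 and 1.39%) and from exon 26 to the gene end (1.08% ± 0.0739 and 0.927%), and overlapped the ESC libraries in the other 4 parts. From exon 14 to exon 22, where bait 1 differed most, bait 2 gave 4.15% ± 0.206 and 4.09%, with overlap. The ratios of the CTCF bait ran from 1.47 in the gap to 2.13 from exon 23 to exon 25, a stretch of 3.704 kb with 108 UMIs in all.

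**Figure D5:**
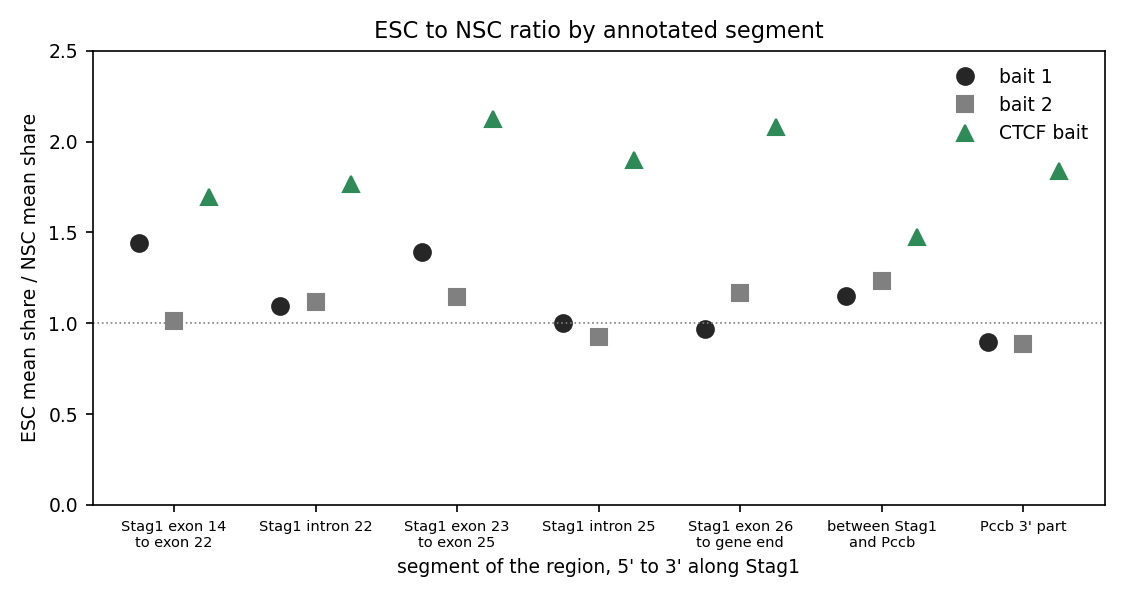
Ratio of the mean ESC share to the mean NSC share (vertical axis) in each annotated part of the region, ordered along Stag1 from 5′ to 3′, for the 3 baits. The CTCF bait ratios lie between 1.47 and 2.13, and those of bait 1 and bait 2 between 0.887 and 1.44 with values on both sides of 1 (dotted line).

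The Stag1 end itself was examined as a border, by dividing the UMIs per kb on its gene side by those per kb on its outer side. From bait 1 this ratio was 1.23 ± 0.226 in ESC and 1.02 ± 0.171 in NSC (SD, n = 2 each), and the samples overlapped (exact permutation p = 0.667). Within each linked set ESC lay above NSC (1.07 against 0.899, and 1.39 against 1.14). From bait 2 it was 1.02 ± 0.0859 (SD, n = 3) and 1.05, and from the CTCF bait 0.901 ± 0.0379 (SD, n = 2) and 0.813. Density thus did not fall at the Stag1 end from the CTCF bait, whose contacts were denser on the outer side in all 3 libraries.

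The windows just inside and outside the limits of the region are given as a description. The CTCF bait share at 100840001, just before the region, was 1.18% ± 0.0867 (SD, n = 2) in ESC and 0.781% in NSC, and in the first window inside 1.88% ± 0.178 and 1.17%. The ESC to NSC ratio was 1.51 in that outer window, and 1.57 and 1.48 at 100800001 and 100820001 before it, so the higher ESC share did not begin at the near limit. In the window at 100840001 bait 1 gave 1.19% ± 0.0245 (n = 2) and 0.812% (ratio 1.47, above all 7 windows inside), and bait 2 1.15% ± 0.146 (n = 3) and 0.795% (ratio 1.45), both without overlap. At the far edge the CTCF bait share was 2.69% ± 0.289 and 1.52% in the last window inside, and 2.78% ± 0.334 and 2.15% in the next, at 101000001. At 101020001, also in Pccb, it was 1.52% ± 0.126 and 1.5%. The high ESC share from the CTCF bait thus went on for 1 window past the limit of the region, and in the window after that the ESC and NSC libraries overlapped.

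Single fragment ends held few UMIs. The highest count of any end in the region ranged from 4 to 21 per library, 5 of the 602 ends were seen in all 14 libraries, and the 10 strongest ends made up 4.44% to 9.89% of a library's UMIs in the region. The strongest end from bait 1 was at 100892575 in Stag1 intron 21, with 6, 2, 3 and 6 UMIs in ESC replicates 1 to 4 and 3, 2 and 3 in NSC replicates 1 to 3. It was followed by 100929860 in exon 24 and by 100924303 in intron 22, with each library given equal weight. With repeat libraries averaged the first 2 ends kept their rank, the third was 100865053 in intron 13 (0.0451%), and 100924303 ranked 9 (0.0400%), so its place in the lists of both Nanog baits rests on the weighting. From bait 2 the strongest ends were at 100900605 in intron 21, 100950141 in intron 29 and again 100924303.

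From the CTCF bait the strongest end was at 100999621 in Pccb intron 6, with 21 and 4 UMIs in the ESC libraries and 4 in the NSC library, followed by 100910568 in Stag1 intron 22 (17 and 5, against 2) and 100955188 in intron 32 (7 and 7, against 1). The end at 100924303, whose sequence is printed above, had 2, 4, 6 and 3 UMIs in the ESC libraries of bait 1 and 2, 0 and 2 in its NSC libraries, where a count of 0 allows a share of up to 0.0699%. From bait 2 it had 3, 1 and 4 UMIs in ESC and 1 in NSC. Single ends were not tested between cell types. Leaving out the strongest end of each bait left the log2 ratios of the region share at 0.24, 0.08 and 0.79.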

How the data were processed

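UMI-4C libraries of mouse ESC and NSC were used as deposited by the authors, as whole counts of UMIs per pair of fragment ends, without normalisation. Per the labels, they were sequenced on a HiSeq instrument, and the submitters' processing notes name Bowtie2 and mm10. The rules for collapsing UMIs and for filtering are not given in the sources used here. Every pair was listed in both directions, and 1 was used. The bait was the commonest end, and all listed ends lay at GATC sites of GRCm38. Genes come from the GENCODE annotation of that build.

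Region, windows and lists were chosen with earlier results of these data known. Named ends are the 3 with the highest mean share per bait, with libraries weighted equally. Shares were taken over UMIs 10 kb to 1 Mb from the bait, with 95% Wilson intervals. A count of 0 allows 3 counts. Intervals and floors cover counting error only. Libraries sharing at least 50% of ends on other chromosomes were averaged, and those sharing at least 1% were called linked. Windows with at least 10 UMIs were tested with edgeR 4.0.16 (R 4.3.3, limma 3.58.1). Library size was the sum of UMIs 10 kb to 1 Mb from the bait, averaged counts were rounded to the nearest even number at ties, and p-values were adjusted by Benjamini-Hochberg. DESeq2 1.42.0 was an alternative. Rounding ties upwards was tried after seeing the data, because the count of called windows differed from an earlier one. Fits were tested on simulated counts. There, recovery of changed windows at the adjusted threshold was partial and also depended on the rounding, so windows that did not pass may still differ.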

Additional observations from a re-analysis of the deposited data

How the results depend on the processing

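For bait 1 the log2 ratio of the region share stayed positive under all alternatives. It did for the CTCF bait too, but that contrast chose the region and nothing is read from it. For bait 2 the log2 ratio turned to −0.094 over 10 kb to 500 kb. This setting, chosen for bait 2 and the CTCF bait after seeing the data, gave 0.65 for the latter. The region reaches 544.623 kb from this bait, partly outside the denominator, so this is not a share. For bait 1 the log2 ratio ranged from 0.06 (10 kb to 500 kb) to 1.11 (all UMIs outside 10 kb). Taking all 7 libraries as replicates, it was 0.23, and that of the mirror ratio 0.55, each with an exact permutation p of 0.0286, but these include repeat libraries. For bait 2 the log2 ratio became 0.29 with each end counted once, 0.41 over all UMIs on chromosome 9 outside 10 kb, 0.66 over all UMIs outside 10 kb and 0.24 over 200 kb to 600 kb. For the CTCF bait the same settings gave 0.27, 1.07, 1.23 and 0.28. The number of region windows called from bait 1 (edgeR, 3 of 7) was 5 with TMM factors and with all UMIs as library size. It was 3 with DESeq2, and 2 with ties rounded upwards (25 windows called in all, against 31). It was 0 with each end counted once (2 of 7 at an unadjusted p under 0.05), with linked libraries as a block (3 of 7) and with distance bands (0 of 7). In 140 kb windows the region was 1 called window, where 11 of all 15 were called. In 10 kb windows 2 of 14 were called, beside 21 of all 198. Leaving out 1 library gave 0 (without ESC replicate 3, or without NSC replicate 2) to 3. Leaving out a whole sample of repeat libraries gave 0 in each of 3 cases: ESC 1 and 4, ESC 2 and 3, and NSC 1 and 3. The lone sample is then assumed to vary like the other group. The median log2 fold change over all windows was −0.47 as reported, −0.10 with TMM factors, −0.03 with DESeq2 and 0.28 with all UMIs, so directions near 0 depend on the scaling. At 100940001 the log2 fold change turned to −0.010 without ESC replicate 2, −0.0067 without ESC replicate 4 and −0.0078 without NSC replicate 1, and to −0.21 without ESC 1 and 4 and −0.33 without NSC 1 and 3. At 100960001 it ran from −0.047 (without NSC replicate 2) to 0.20 with 1 library left out. At 100980001 it turned to 0.31 with TMM factors, 0.37 with DESeq2, 0.70 with all UMIs, 0.053 with distance bands, 0.021 without ESC replicate 3 and 0.14 without ESC 2 and 3. The border ratio of bait 2 (log2 −0.05) turned to 0.016 against its closest linked library, and ran from −0.086 to 0.021 (without ESC replicate 2) with 1 library left out. The causes were not tested. With the replicate number as a block the log2 ratio of the bait 1 share was 0.22 (exact permutation of signs, p = 0.25, the lowest that 3 pairs allow), that of the mirror ratio 0.57 and that of the border ratio 0.38, and 3 of 7 windows were called (57 in all). The deviations of same-numbered libraries from their group means had r = −0.52, −0.24 and 0.07 over windows. Because ESC 2 and 3, and NSC 1 and 3, are repeat libraries, this check cannot show whether equal numbers mark pairs. The numbers were not taken as pairs, although the ESC and NSC libraries numbered 1 are linked for each bait (12.3%, 12.9% and 8.37% of ends shared).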
